A study of Mus musculus with 96 samples.

Results

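The type I interferon response module is a set of 41 genes that interferon-alpha and interferon-beta are known to induce, and it was followed through RNA of mouse striatal astrocytes and of the surrounding tissue. The members were taken by name, as known interferon-induced genes, out of 24060 gene entries, and all 41 were found. Adult mice received an AAV that put HA-tagged ribosomal protein Rpl22 into striatal astrocytes for 3 weeks (the RiboTag method). From each striatal lysate, RNA on the tagged ribosomes was immunoprecipitated with an anti-HA antibody (IP), and the cleared lysate gave the input, which holds RNA of all cell types. The 96 libraries come from 48 mice in 6 experiments, each with 4 mice in either arm.

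In the QA experiment, C57BL/6 mice had quinolinic acid, an excitotoxin given at 30 nM according to the labels, microinjected into the striatum 2 weeks before, and their controls had vehicle. In the LPS experiment, C57BL/6 mice had lipopolysaccharide, the bacterial endotoxin, injected intraperitoneally at 5 mg/kg 24 h before, and their controls had vehicle. In the Kir4.1 experiment, Kir4.1flox/flox mice had AAV5-GfaABC1D-Cre, so that the loss of this potassium channel (gene Kcnj10) depends on the astrocyte promoter, and their controls of the same genotype had AAV5-GfaABC1D-TdTomato. The Itpr2 experiment set Itpr2-/- mice, which carry the IP3R2 knockout in all cells, against Itpr2+/+ littermates. In both receptor experiments, C57BL/6 mice with rM3Ds (a Gs-coupled designer receptor) or hM3Dq (a Gq-coupled one) in striatal astrocytes had 1 mg/kg of the designer ligand CNO, and their controls, with the same receptor, had vehicle. CNO was given 2 h before in the rM3Ds experiment, and no time is given for hM3Dq in the sources used here. Every control mouse therefore also carried an AAV and, in the receptor experiments, the receptor, and no mouse without a receptor had CNO. No mouse without the floxed gene had the Cre virus, so Cre itself and the loss of Kir4.1 cannot be told apart. Each experiment has a project number of its own, so that the experiment and its baseline cannot be told apart.

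Type I interferons are secreted proteins that cells make when they sense foreign or misplaced nucleic acid or bacterial products. They bind the receptor pair Ifnar1 and Ifnar2, and the receptor's kinases activate Stat2, which works with Irf9 in a complex that binds interferon-stimulated response elements (ISREs) in promoters. The induced genes block viral replication, sense viral RNA and DNA, attach the ubiquitin-like protein ISG15 to other proteins, and include factors such as Irf7 and Irf1 that extend or overlap the response. Astrocytes are known to express the receptor and to respond to it.

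Sequencing depth and the identity of the libraries came first. The IP libraries held between 42.3 M and 82.2 M reads on genes and the input libraries between 14.6 M and 50.3 M reads, as recovered from the deposited FPKM values (fragments per kilobase of gene, relative to the library's mapped reads). No pair of replicates among 144 was close enough to be a duplicate. In the controls, IP exceeded input for each of the 10 astrocyte markers (median log2 difference 2.75), and all 12 microglia markers and all 10 endothelial markers were lower (medians -4.80 and -2.84). Kcnj10 was lower in Cre than in TdTomato IP (log2 change -2.21 ± 0.07 SE, adjusted p = 1.8e-07). Itpr2 itself was not lower in the libraries labelled Itpr2-/- (log2 change 0.07 ± 0.13 SE, adjusted p = 0.97). Which part of that gene is deleted is not given in the sources used here, so this does not check the label. Single libraries lay at an end of their group in the module: LPS replicate 2 was lowest, and LPS vehicle replicate 4 and hM3Dq CNO replicate 2 were highest. The results that rest on these libraries are given with and without them. QA vehicle replicate 1 was likewise the highest of its group. No library's module level was an outlier by Dixon's criterion, which asks whether 1 value lies far from the rest of its group. Judged by the library's Xist level, 1 of 4 QA mice and 4 of 4 QA vehicle mice were female, so sex went with treatment in that experiment.

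Promoter windows of the members were searched for the elements through which the pathway acts, and 4 of them are printed. RefSeq (GRCm38.p6) gave a window of 300 bases, from 250 before to 50 after the start site, for 31 of the 41 members. The ISRE core was searched as GAAA, then NN (any bases), then GAAA on both strands, and 13 of the 31 members (41.9%) held it, against 1079 of all 27025 genes with a window (3.99%). The GAS core, an element of genes that answer to interferon-gamma, was searched as TTCNNNGAA on both strands, and 8 of the 31 members (25.8%) held it, against 2582 of the 27025 genes (9.55%). A match is a description of letters and not a measured binding site. Of the 4 windows printed, those of Ifit1, Rsad2 and Isg15 have the bases of their ISRE matches in capitals. They are shown because these genes carry the responses to LPS and CNO or mark the pathway. The Irf1 window printed holds no ISRE core and has its GAS match in capitals. The Ifit1 window lies at chr19:34640639-34640938 on the plus strand, and its matches begin 104 and 85 bases before the start site. The Rsad2 window lies at chr12:26456403-26456702 on the minus strand, with a match that begins 120 bases before the start. The Isg15 window lies at chr4:156200769-156201068 on the minus strand, and its 3 matches overlap and begin 78, 72 and 66 bases before the start. The printed Irf1 window lies at chr11:53769764-53770063 on the plus strand, and its GAS match begins 90 bases before the start. A second Irf1 window, at chr11:53770223-53770522, holds neither core.
Ifit1: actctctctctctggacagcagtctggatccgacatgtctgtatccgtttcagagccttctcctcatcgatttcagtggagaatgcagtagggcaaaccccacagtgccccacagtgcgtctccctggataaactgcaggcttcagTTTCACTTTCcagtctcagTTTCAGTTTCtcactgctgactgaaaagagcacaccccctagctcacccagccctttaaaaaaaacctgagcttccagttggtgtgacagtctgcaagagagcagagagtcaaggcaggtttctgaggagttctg
Rsad2: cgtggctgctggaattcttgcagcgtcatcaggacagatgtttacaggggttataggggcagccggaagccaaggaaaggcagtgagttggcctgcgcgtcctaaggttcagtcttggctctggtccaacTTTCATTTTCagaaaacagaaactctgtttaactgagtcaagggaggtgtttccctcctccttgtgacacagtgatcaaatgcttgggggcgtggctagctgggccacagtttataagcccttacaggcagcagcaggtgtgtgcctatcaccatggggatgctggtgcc
Isg15: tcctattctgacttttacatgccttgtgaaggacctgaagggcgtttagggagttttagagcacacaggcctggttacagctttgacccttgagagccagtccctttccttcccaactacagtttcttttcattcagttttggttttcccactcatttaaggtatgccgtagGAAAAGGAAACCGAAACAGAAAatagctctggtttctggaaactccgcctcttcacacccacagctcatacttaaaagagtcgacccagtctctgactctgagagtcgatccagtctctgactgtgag
Irf1: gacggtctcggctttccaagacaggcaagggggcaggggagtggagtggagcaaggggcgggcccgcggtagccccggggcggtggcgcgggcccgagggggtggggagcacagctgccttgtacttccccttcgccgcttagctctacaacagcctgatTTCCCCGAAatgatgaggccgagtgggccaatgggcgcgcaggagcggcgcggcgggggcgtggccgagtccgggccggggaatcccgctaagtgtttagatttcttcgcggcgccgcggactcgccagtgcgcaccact

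In control mice the module was astrocyte-weighted. Of the 41 members, 35 were higher in IP than in input and 3 were lower, where 44% of all 15566 genes tested were higher and 44.5% lower (limma on the within-mouse differences of 24 control mice, adjusted p under 0.05). The median member was 1.44 higher in IP on the log2 scale, against -0.02 for all genes tested. Ifit3, whose product binds Ifit1 on viral RNA, averaged 192 ± 104 FPKM in IP and 42.9 ± 28.8 FPKM in input (SD, n = 24 mice) and was higher in IP in 24 of 24 mice, by 2.48 ± 0.32 (SD) on the log2 scale. Herc6, the mouse ligase for ISG15, followed at 2.31, then Ifi44 at 2.19 and Oasl2 at 2.06. Against them, Sp100, a nuclear body protein, was 2.07 lower in IP (higher in 0 of 24 mice), and Oas3 and Oas2, which make the 2-5A messenger that turns on RNase L, were 1.51 and 0.43 lower. Oas3 was higher in IP in 0 of 24 mice and Oas2 in 2 of 24. All 3 were low in IP. Sp100 averaged 0.428 FPKM in IP and 2.45 FPKM in input, Oas3 0.128 and 0.684 FPKM, and Oas2 0.311 and 0.519 FPKM. Oas3 entered this test mainly through its input values, so its direction was largely set by the filter of 0.5 FPKM. Oasl1, Irf7 and Ifi202b were not called in either direction. Near-identical copies could split the reads of Ifit3, Oas1a, Ifi27 and Ifi202b, and Parp9 and Dtx3l overlap on the genome, so the values of these genes are uncertain. In bulk RNA such as this, fewer cells of a type and less RNA per cell cannot be told apart.

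**Figure D1:**
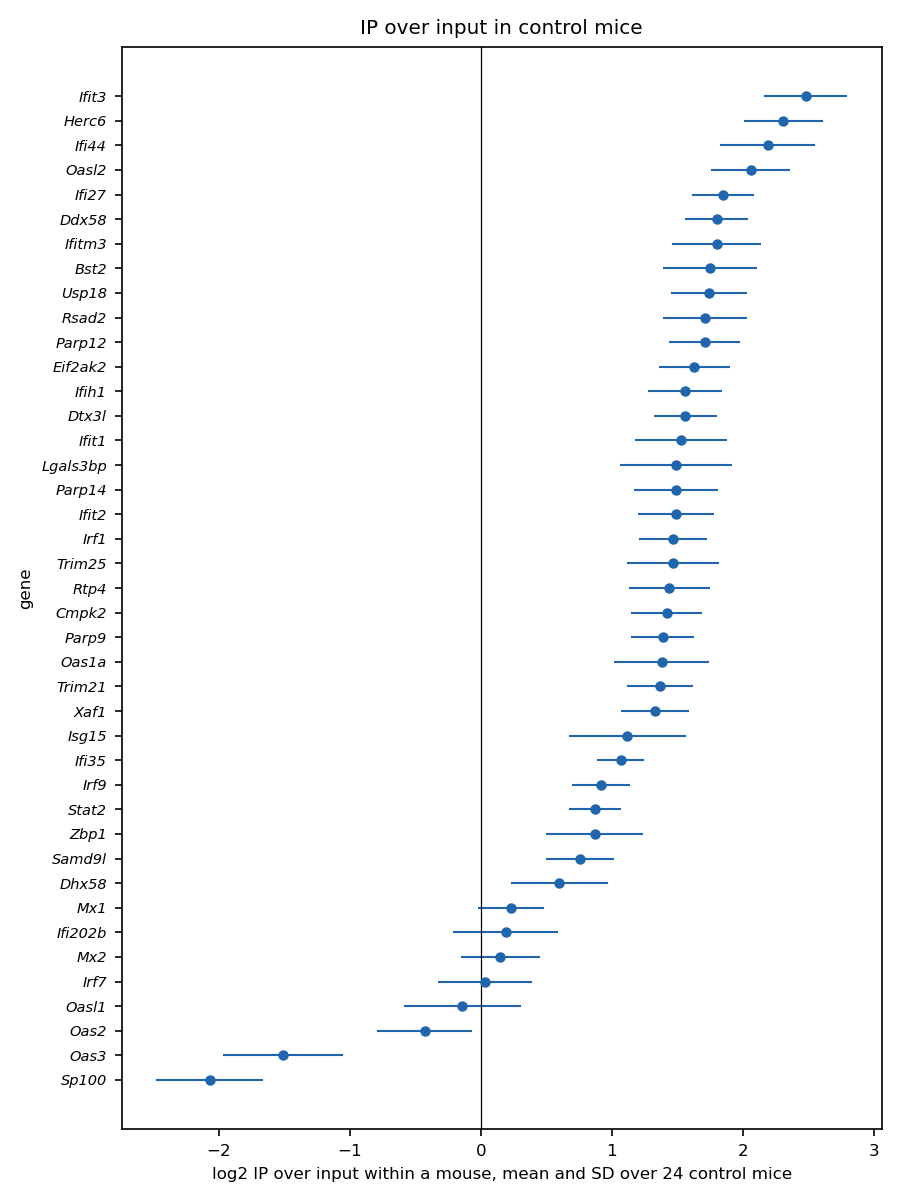
Each point is the mean log2 difference of IP over input within a mouse for 1 of the 41 members, and the bar is the SD over 24 control mice, with members ordered by the difference. From Ifit3 at 2.48 down, most members lie right of 0, and Sp100 at -2.07, Oas3 at -1.51 and Oas2 at -0.43 lie left of it.

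The level of the whole module, taken as the mean log2(FPKM + 0.1) over the 41 genes, differed between the controls of the experiments. Over the 24 control mice it ran between 2.17 and 4.14 in IP and between 1.03 and 3.35 in input, a range wider than the difference of 1.2 between the QA and vehicle means in IP. It was higher in IP than in input in 47 of 48 mice. In IP, the order of the groups with rising mean was Cre 1.77 ± 0.44, Itpr2-/- 2.02 ± 0.19, Itpr2+/+ 2.65 ± 0.33, TdTomato 2.78 ± 0.20, LPS vehicle 3.26 ± 0.58, QA vehicle 3.31 ± 0.28, rM3Ds CNO 3.69 ± 0.11, hM3Dq vehicle 3.76 ± 0.28, rM3Ds vehicle 3.78 ± 0.14, hM3Dq CNO 4.27 ± 0.41, QA 4.51 ± 0.24 and LPS 4.59 ± 0.61 (SD, n = 4 mice each). Neighbours in this order differed by no more than the larger of their SDs, except at the steps between Itpr2-/- and Itpr2+/+, between QA vehicle and rM3Ds CNO, and between rM3Ds vehicle and hM3Dq CNO. The ranges of the 3 groups at the top overlapped.

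In several groups 1 mouse was highest or lowest in nearly every member. In the QA vehicle group, replicate 1 had the highest IP value of the group in 41 of 41 members. The LPS vehicle replicate 4 was likewise highest in 41 of 41, and replicate 2 of that group was lowest in 40. In hM3Dq CNO mice, replicate 2 was highest in 41 of 41. Other groups were less uniform: the mouse with the highest module level was highest in 18 of 41 members in Itpr2-/- IP, and the mouse with the lowest level was lowest in 20 in QA IP and in 19 in rM3Ds CNO IP. The mouse with the highest module level was the same in IP and input in 10 of 12 groups, and the mouse with the lowest in 10 of 12, while the whole order of the 4 mice was the same in 5 of 12. The median coefficient of variation of the members in IP ran from 10.8% in the rM3Ds CNO group to 42.2% in the LPS group. The 41 members of a mouse are therefore not 41 independent readings of the treatment.

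**Figure D2:**
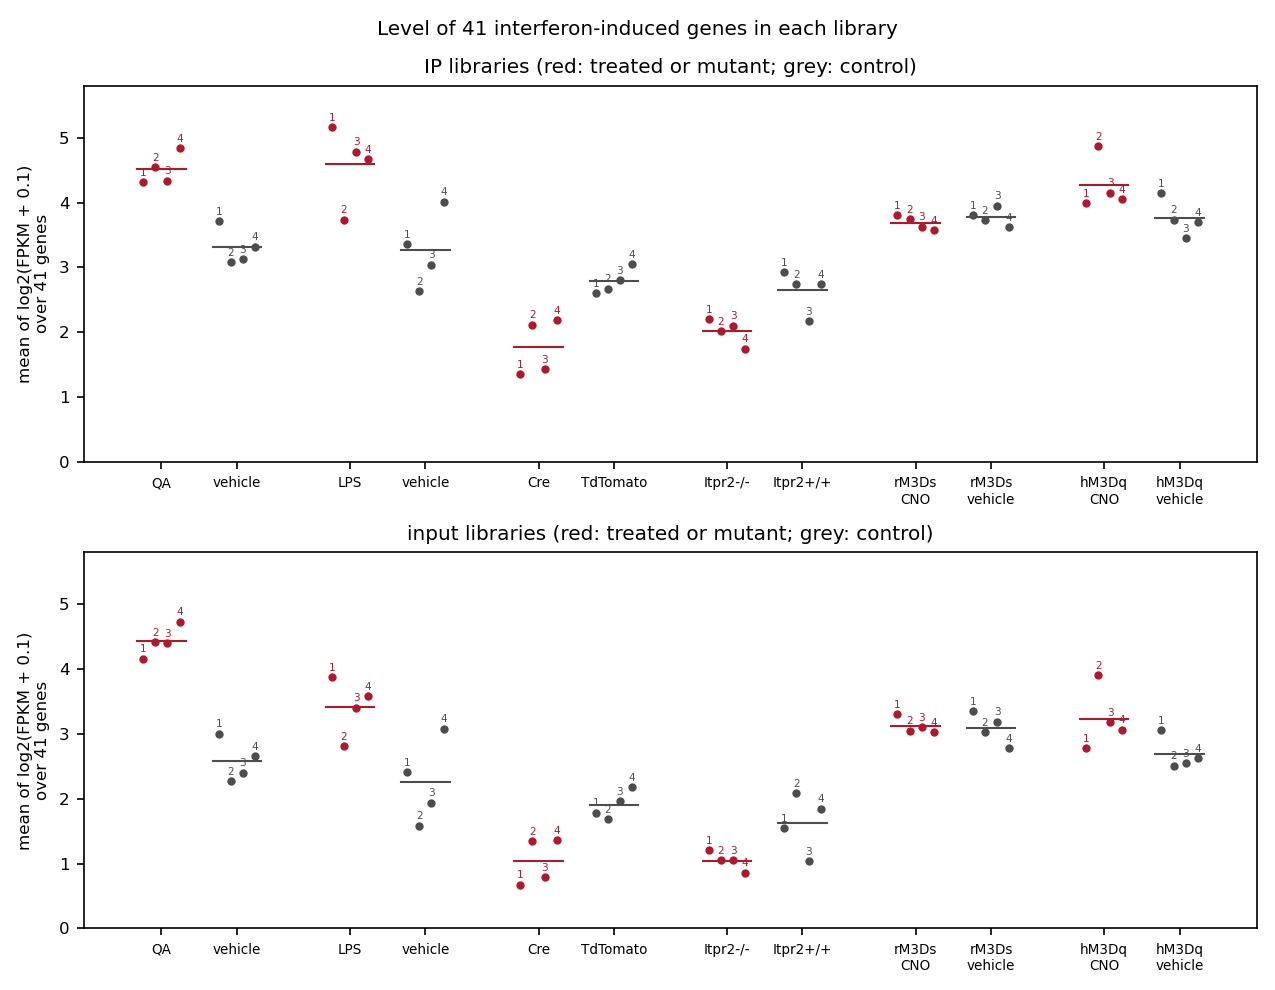
The level of the module, the mean log2(FPKM + 0.1) over the 41 genes, is plotted for each mouse in IP and in input. Each treated or mutant group lies left of its control, and a line marks the mean of 4 mice. QA mice lie above their controls without overlap (lowest 4.32 against highest 3.71 in IP), Cre mice lie below theirs (highest 2.19 against lowest 2.60), and LPS mice, between 3.74 and 5.17, overlap theirs.

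QA was followed by a rise of nearly the whole module, in the astrocyte IP and more strongly in the tissue input. In IP, 38 of the 39 members tested were higher and none lower, where 34.8% of all 13824 genes tested were higher and 5411 genes lower (median member 1.17 on the log2 scale, all genes -0.03). In input, 39 of 40 were higher, where 33.4% of all 14831 genes were (median 1.77, all genes -0.07). Oas2 and Sp100, 2 of those called in IP, had no vehicle library at the 0.5 FPKM of the filter, so they entered through the QA mice alone and had to differ. The QA and vehicle mice did not overlap in 34 members in IP (35.5% of all genes lay wholly above) and in 38 members in input (39.1%). In IP all 10 IFIT and antiviral members rose, as did 4 of 4 OAS genes tested, 5 of 5 genes of the ISG15 system and ubiquitin ligases, 4 of 4 ADP-ribosyltransferase genes and partners, 5 of 5 sensors tested and 6 of 6 other members, and 4 of 5 transcription factors.

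Parp14, an ADP-ribosyltransferase, had 32.6, 34.8, 28.0 and 48.6 FPKM in QA IP, against 9.59, 6.04, 7.74 and 8.32 FPKM in vehicle IP (log2 change 2.11 ± 0.17 SE, adjusted p = 3.8e-06). Irf1, the transcription factor whose promoter is shown above with a GAS match, had 58.8, 72.1, 55.3 and 104 FPKM in QA IP, against 20.1, 12.7, 15.9 and 15.8 FPKM in vehicle IP (2.09 ± 0.20 SE). In both genes every QA mouse stood well above every vehicle mouse. Zbp1, a sensor of left-handed nucleic acid, had 23.1, 25.7, 15.8 and 36.1 FPKM in QA IP, against 9.11, 5.04, 5.32 and 6.38 FPKM in vehicle IP (1.88 ± 0.25 SE). Ifit2, an RNA-binding antiviral protein, had 68.6, 86.4, 68.1 and 126 FPKM in QA IP, against 36.1, 20.02, 21.1 and 22.6 FPKM in vehicle IP (1.75 ± 0.23 SE). Again the groups did not overlap, and QA replicate 4 was the highest. Ifi44 was 1.66 higher in QA IP. Sp100 was at low values, 1.24 to 2.25 FPKM in QA IP against 0.302 to 0.495 FPKM in vehicle IP (1.85). The member that did not pass was Irf9, the DNA-binding partner of Stat2, at 30.9, 37.7, 39.9 and 39.1 FPKM in QA IP, against 38.2, 26.8, 27.5 and 31.1 FPKM in vehicle IP (0.22 ± 0.12 SE, adjusted p = 0.14). The groups overlap there through the lowest QA mouse and the highest vehicle mouse.

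In input the leading member was Oas3, which was too low to be tested in QA IP. It had 4.77, 6.02, 7.30 and 7.50 FPKM in QA input, against 1.08, 0.626, 0.733 and 0.902 FPKM in vehicle input (log2 change 2.65 ± 0.19 SE, adjusted p = 9.1e-07). Zbp1 (2.58), Irf1 (2.5) and Parp14 (2.41) followed. All 4 genes were higher in every QA mouse than in any vehicle mouse. The member that missed the threshold in input was Isg15, the ubiquitin-like modifier, at 8.001, 10.5, 13.4 and 14.2 FPKM in QA input, against 11.3, 4.69, 4.89 and 7.65 FPKM in vehicle input (0.59 ± 0.28 SE, adjusted p = 0.083), where the groups overlap through vehicle replicate 1.

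The rise was smaller in IP than in input for most members. Tested within mice, the change in IP minus the change in input was lower than 0 for 31 of 40 members and higher for 1, where 19.7% of all 15154 genes were lower and 30.9% higher (median member -0.40, all genes 0.08). The gap was -1.28 for Lgals3bp, a secreted glycoprotein, and -1.02 for Oas1a, a 2-5A synthetase. Oas3 had a gap of -1.63, but it entered this test mainly through its input values, and at 0.200 to 0.534 FPKM in QA IP against 0.0617 to 0.230 FPKM in vehicle IP the added 0.1 shrinks its change in IP. The exception was Cmpk2, a mitochondrial nucleotide kinase next to Rsad2 on the genome, at 0.33. The module level of IP over input was 0.08 ± 0.10 in QA mice and 0.73 ± 0.06 in vehicle mice (SD, n = 4 each). The summed FPKM of the 12 microglia markers moved with this, at 4622 to 6661 in QA input against 841 to 983 in vehicle input, and at 78.9 to 127 in QA IP against 33.3 to 38.7 in vehicle IP, with all 12 markers higher in both and none at 0. Astrocyte markers summed to 1502 to 1784 FPKM in QA input, against 958 to 1009 FPKM in vehicle input. In IP they summed to 4942 to 5491 FPKM in QA mice, against 4754 to 5338 FPKM in vehicle mice. Within mice, 9 of 10 astrocyte markers had a lower change in IP than in input (median -0.36) and 0 a higher one. Of the 12 microglia markers, 8 had a lower change and 1 a higher one (median -0.36). Markers of other cells moved as well. Medium spiny neuron markers summed to 275 to 393 FPKM in QA IP, against 1627 to 1715 FPKM in vehicle IP, and to 1363 to 1519 FPKM in QA input, against 3168 to 3248 FPKM in vehicle input, with 7 of 7 lower in both. Oligodendrocyte markers summed to 2778 to 3916 FPKM in QA IP, against 1422 to 1596 FPKM in vehicle IP, with 6 of 6 higher in IP and in input. In QA input 6 of 7 leukocyte markers tested and 8 of 10 endothelial markers were also higher. The part of these cells in the change of the module was not tested. With sex as a covariate, the QA change rests on the 1 female QA mouse against the 4 vehicle mice, all female. In that fit the median member was 0.93 higher in IP and 1.48 higher in input. Of the receptor pair, Ifnar2 (1.00) rose in QA IP and Ifnar1 did not pass (0.01 ± 0.06 SE, adjusted p = 0.83). Of 8 interferon receptor and kinase genes tested 6 rose and 1 fell, of 11 upstream sensing genes 10 rose and 1 fell, of 8 negative feedback genes 6 rose and 2 fell, and of 15 genes induced by interferon-gamma 13 rose and 1 fell.

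LPS was followed by a rise in which Rsad2, Mx1 and Oasl1 had the largest changes in IP and 1 mouse of 4 took little part. In IP 30 of 39 members were higher and none lower, where 18.9% of all 13641 genes were higher and 2447 genes lower (median member 1.35, all genes -0.03). In input 28 of 40 were higher, where 16.3% of all 14511 genes were (median 1.27, all genes 0.01). The groups did not overlap in 6 of 39 members in IP and 6 of 40 in input. These shares are near the 12.1% and 13% of all genes that lay wholly above, and so give no result about the module. In IP, 7 of 10 IFIT and antiviral members rose, 2 of 4 OAS genes tested, 5 of 5 genes of the ISG15 system and ubiquitin ligases, 4 of 4 ADP-ribosyltransferase genes and partners, 4 of 5 sensors, 6 of 6 other members and 2 of 5 transcription factors.

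Rsad2 encodes viperin, an enzyme that makes a chain-ending nucleotide against viral RNA synthesis, and its promoter is shown above. It had 278, 9.77, 225 and 166 FPKM in LPS IP, against 7.50, 3.51, 5.44 and 12.9 FPKM in vehicle IP (log2 change 4.05 ± 1.03 SE, adjusted p = 0.019). LPS replicates 1, 3 and 4 were above every vehicle mouse, and LPS replicate 2 lay within the vehicle range. Mx1, an antiviral GTPase, had 56.0, 4.71, 37.0 and 27.6 FPKM in LPS IP, against 2.29, 1.15, 1.27 and 5.75 FPKM in vehicle IP (3.51 ± 0.81 SE). Its relative Mx2 had 35.5, 4.17, 29.0 and 33.2 FPKM in LPS IP, against 3.52, 1.67, 2.34 and 5.21 FPKM in vehicle IP (2.84 ± 0.71 SE). RefSeq lists both Mx genes as transcribed pseudogenes in this build. Oasl1, an OAS-like protein without synthetase activity, had 28.0, 1.29, 17.2 and 14.0 FPKM in LPS IP, against 1.12, 0.551, 0.759 and 2.502 FPKM in vehicle IP (3.23 ± 0.92 SE). Ifit2 had 264, 34.6, 202 and 230 FPKM in LPS IP, against 21.0, 11.6, 16.2 and 47.6 FPKM in vehicle IP (2.92 ± 0.71 SE). Ifit1, which binds RNA that lacks the host's cap methylation, had 296, 53.0, 270 and 303 FPKM in LPS IP, against 56.2, 24.0, 34.7 and 85.1 FPKM in vehicle IP (2.22 ± 0.64 SE). In all of these LPS replicate 2 was the low mouse and vehicle replicate 4 the high one.

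Other members did not follow that mouse. Lgals3bp had 109, 107, 95.4 and 110 FPKM in LPS IP, against 72.7, 57.3, 60.4 and 91.4 FPKM in vehicle IP (0.74, adjusted p = 0.0075). Ifitm3, a membrane protein that blocks viral fusion, had 258, 342, 215 and 272 FPKM in LPS IP, against 147, 85.0, 132 and 182 FPKM in vehicle IP (1.16, adjusted p = 0.0064). Ifi27, a small hydrophobic protein, had 116, 116, 113 and 133 FPKM in LPS IP, against 104, 91.3, 96.7 and 106 FPKM in vehicle IP (0.40, adjusted p = 0.010). In these 3 genes every LPS mouse, replicate 2 included, was above every vehicle mouse. They were chosen after their values were seen, and members without overlap were about as frequent as among all genes. The 9 members tested and not called in LPS IP were Ifit3 (1.16 ± 0.49 SE, adjusted p = 0.088), Bst2 (0.66), Samd9l (1.46), Oasl2 (0.64), Oas2 (1.26), Dhx58 (1.21), Sp100 (0.69), Stat2 (0.15) and Irf9 (-0.25). Both factors of the interferon complex stood apart among them. Irf9 had 19.6, 34.0, 15.7 and 14.3 FPKM in LPS IP, against 29.4, 17.9, 24.0 and 35.5 FPKM in vehicle IP, and Stat2 had 15.4, 18.5, 12.7 and 14.9 FPKM in LPS IP, against 17.6, 9.85, 13.7 and 22.0 FPKM in vehicle IP. For Irf9 LPS replicate 2, the low mouse of the Rsad2 group, was the highest of the LPS mice.

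The count of called members depended on single mice. Without LPS replicate 2 it was 34 in IP and 31 in input (Rsad2 IP 5.22), and without the vehicle replicate 4 it was 32 in both. Without any other library it was between 8 and 12 in IP and between 7 and 9 in input, and without LPS replicate 3 the Rsad2 change of 3.65 in IP had an adjusted p of 0.059. The input gave the same leading genes in another order, with Rsad2 at 60.4, 3.14, 40.7 and 43.1 FPKM in LPS input, against 2.43, 1.15, 1.73 and 4.67 FPKM in vehicle input (log2 change 3.48 ± 0.90 SE, adjusted p = 0.024), then Oasl1 (2.82), Mx1 (2.32) and Ifit2 (2.22). Tested within mice, 6 of 40 members rose more in IP than in input, where 5.49% of all 14908 genes did, namely Oas2 (1.25), Mx1 (1.23), Ifit2 (0.72), Cmpk2 (0.72), Mx2 (0.65) and Oas1a (0.50). The same test was lower for 2, Stat2 (-0.87) and Irf9 (-0.69), where 3.03% of all genes were lower. Without LPS replicate 2 this test called 19 members higher and 4 lower, and without any other library between 2 and 5 members in all. The microglia markers summed to 24.8 to 31.1 FPKM in LPS IP, against 28.9 to 32.5 FPKM in vehicle IP, and to 496 to 811 FPKM in LPS input, against 543 to 665 FPKM in vehicle input, where 2 of 12 were higher and 5 lower. Leukocyte markers summed to 43.4 to 61.4 FPKM in LPS input, against 26.9 to 40.8 FPKM in vehicle input, with 4 of 7 tested higher. Oligodendrocyte markers summed to 1048 to 1770 FPKM in LPS IP, against 815 to 1348 FPKM in vehicle IP, with 3 of 6 higher. Their part in the LPS changes was not tested. In LPS IP both Ifnar1 (0.42) and Ifnar2 (0.56) rose. Of 8 receptor and kinase genes 5 rose, of 10 upstream sensing genes 6, of 7 negative feedback genes 6, and of 14 interferon-gamma-induced genes 12, with Cxcl10, a chemokine, at 4.96.

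The interferon ligands themselves were at the floor of the data. Of 18 type I ligand genes, between 11 and 18 were at 0 in every library of a group. Their summed FPKM was highest in an LPS input library, at 0.910. Ifnb1, the interferon-beta gene, was at 0.0976, 0, 0.372 and 0.598 FPKM in LPS input, against 0, 0, 0 and 0.158 FPKM in vehicle input. These values are too few reads for a test, and they do not show that the ligands were absent.

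The difference between the QA and LPS changes was tested directly. In IP the QA change minus the LPS change was higher than 0 for Sp100 (1.2), Stat2 (0.81) and Eif2ak2 (0.65), the RNA-activated kinase PKR, and lower for Rsad2 (-3.17), Mx1 (-2.52) and Mx2 (-2.12). These are 3 higher and 3 lower of 39 members, where 27.5% of all 14259 genes were higher and 30.1% lower, and so the members' shares give no result about the module. Sp100 was at 0.302 to 0.495 FPKM in QA vehicle IP and averaged 0.386 FPKM in LPS vehicle IP, and it entered QA IP through the QA mice alone. In input 11 of 40 were higher and none lower, where 26.4% of all 15310 genes were higher, a share near that of the members. Of all genes, 5032 were lower. The 11 members were Sp100 (2.77), Oas3 (2.41), Oas2 (2.04), Oas1a (1.58), Zbp1 (1.37), Bst2 (1.27), Lgals3bp (1.21), Eif2ak2 (1.00), Parp12 (0.92), Trim25 (0.81) and Ifi27 (0.73). In IP the count was 13 without LPS replicate 2, with 10 lower. Without LPS replicate 1, LPS replicate 3 or LPS vehicle replicate 2 it was 3, all higher, and Rsad2, Mx1 and Mx2 lost their calls. Without QA replicate 4 it was 3, all lower, and Sp100, Stat2 and Eif2ak2 lost theirs.

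The Cre virus in Kir4.1flox/flox mice was followed by a fall of the module. In IP 33 of 37 members were lower in Cre than in TdTomato mice and none higher, where 14.9% of all 13537 genes were lower and 2009 genes higher (median member -0.95, all genes 0.02). Cre and TdTomato mice did not overlap in 30 members, where 20.3% of all genes lay wholly below. By role, 10 of 10 IFIT and antiviral members fell, 1 of 2 OAS genes tested, 5 of 5 of the ISG15 system and ubiquitin ligases, 4 of 4 ADP-ribosyltransferase genes and partners, 4 of 4 transcription factors tested, 4 of 6 sensors and 5 of 6 other members.

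Ifi202b, a DNA-binding protein of the interferon-inducible p200 family, had 0.347, 1.13, 0.662 and 0.700 FPKM in Cre IP, against 6.79, 3.93, 6.62 and 8.45 FPKM in TdTomato IP (log2 change -3.01 ± 0.30 SE, adjusted p = 7.5e-05). Oas1a had 0.426, 1.16, 0.477 and 1.10 FPKM in Cre IP, against 1.99, 2.20, 3.06 and 3.43 FPKM in TdTomato IP (-1.68 ± 0.31 SE). Neither gene overlapped between the groups. Irf1 had 3.73, 7.10, 4.46 and 5.27 FPKM in Cre IP, against 13.8, 13.5, 16.8 and 20.1 FPKM in TdTomato IP (-1.60 ± 0.19 SE). Ifitm3 had 29.7, 54.0, 41.5 and 61.1 FPKM in Cre IP, against 119, 137, 141 and 162 FPKM in TdTomato IP (-1.58 ± 0.19 SE). Both were lower in every Cre mouse, and Cre replicates 1 and 3 were the lowest, as in the module level of 1.35 and 1.43 against 2.12 and 2.19 in Cre replicates 2 and 4. Ifi35, a partner of other interferon-induced proteins, was at 1.35 to 2.90 FPKM in Cre IP, against 5.14 to 8.34 FPKM in TdTomato IP (-1.51). Bst2, or tetherin, which holds budding virus at the cell surface, was at 9.64 to 17.7 FPKM in Cre IP, against 29.5 to 52.4 FPKM in TdTomato IP (-1.49). The 4 members tested and not called were Oasl2 (-0.91 ± 0.33 SE, adjusted p = 0.059), Ifih1 (-0.44), Dhx58 (-0.31) and Lgals3bp (-0.30), all with a negative change.

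The input pointed the same way with fewer calls. In Cre input 5 of 39 members were lower and none higher, where 0.332% of all 14160 genes were lower and 2 genes higher (median member -0.82, all genes 0.01). They were Ifi202b (-1.68), Ifitm3 (-1.12), Ifit3 (-1.03), Lgals3bp (-0.86) and Stat2 (-0.57). Cre lay wholly below TdTomato in 24 members, where 4.36% of all genes did. Without 1 library the number of calls in input was 0 for Cre replicate 1 or 3 and for TdTomato replicate 1, 3 or 4, and 1 for TdTomato replicate 2. Within mice, 5 of 39 members fell more in IP than in input, where 1.89% of all 14583 genes did, namely Ifi202b (-1.35), Ifi35 (-0.71), Irf1 (-0.63), Bst2 (-0.60) and Cmpk2 (-0.50), and Lgals3bp fell less (0.56), where 0.59% of all genes were higher. Without TdTomato replicate 4 the 6 calls became 3. Microglia markers summed to 25.1 to 28.8 FPKM in Cre IP, against 30.8 to 35.5 FPKM in TdTomato IP, and oligodendrocyte markers to 751 to 909.6 FPKM in Cre IP, against 1024 to 1331 FPKM in TdTomato IP, with 6 of 6 lower. Medium spiny neuron markers were higher in 7 of 7. Their part in the result was not tested. In Cre IP Ifnar2 fell by 0.31 on the log2 scale, and Ifnar1 did not pass (0.09 ± 0.04 SE, adjusted p = 0.14). Of 8 receptor and kinase genes 4 fell and 1 rose, of 9 upstream sensing genes 4 fell and 2 rose, of 6 negative feedback genes 4 fell, and of 14 interferon-gamma-induced genes 9 fell and 1 rose, with Cxcl10 at -3.16.

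**Figure D3:**
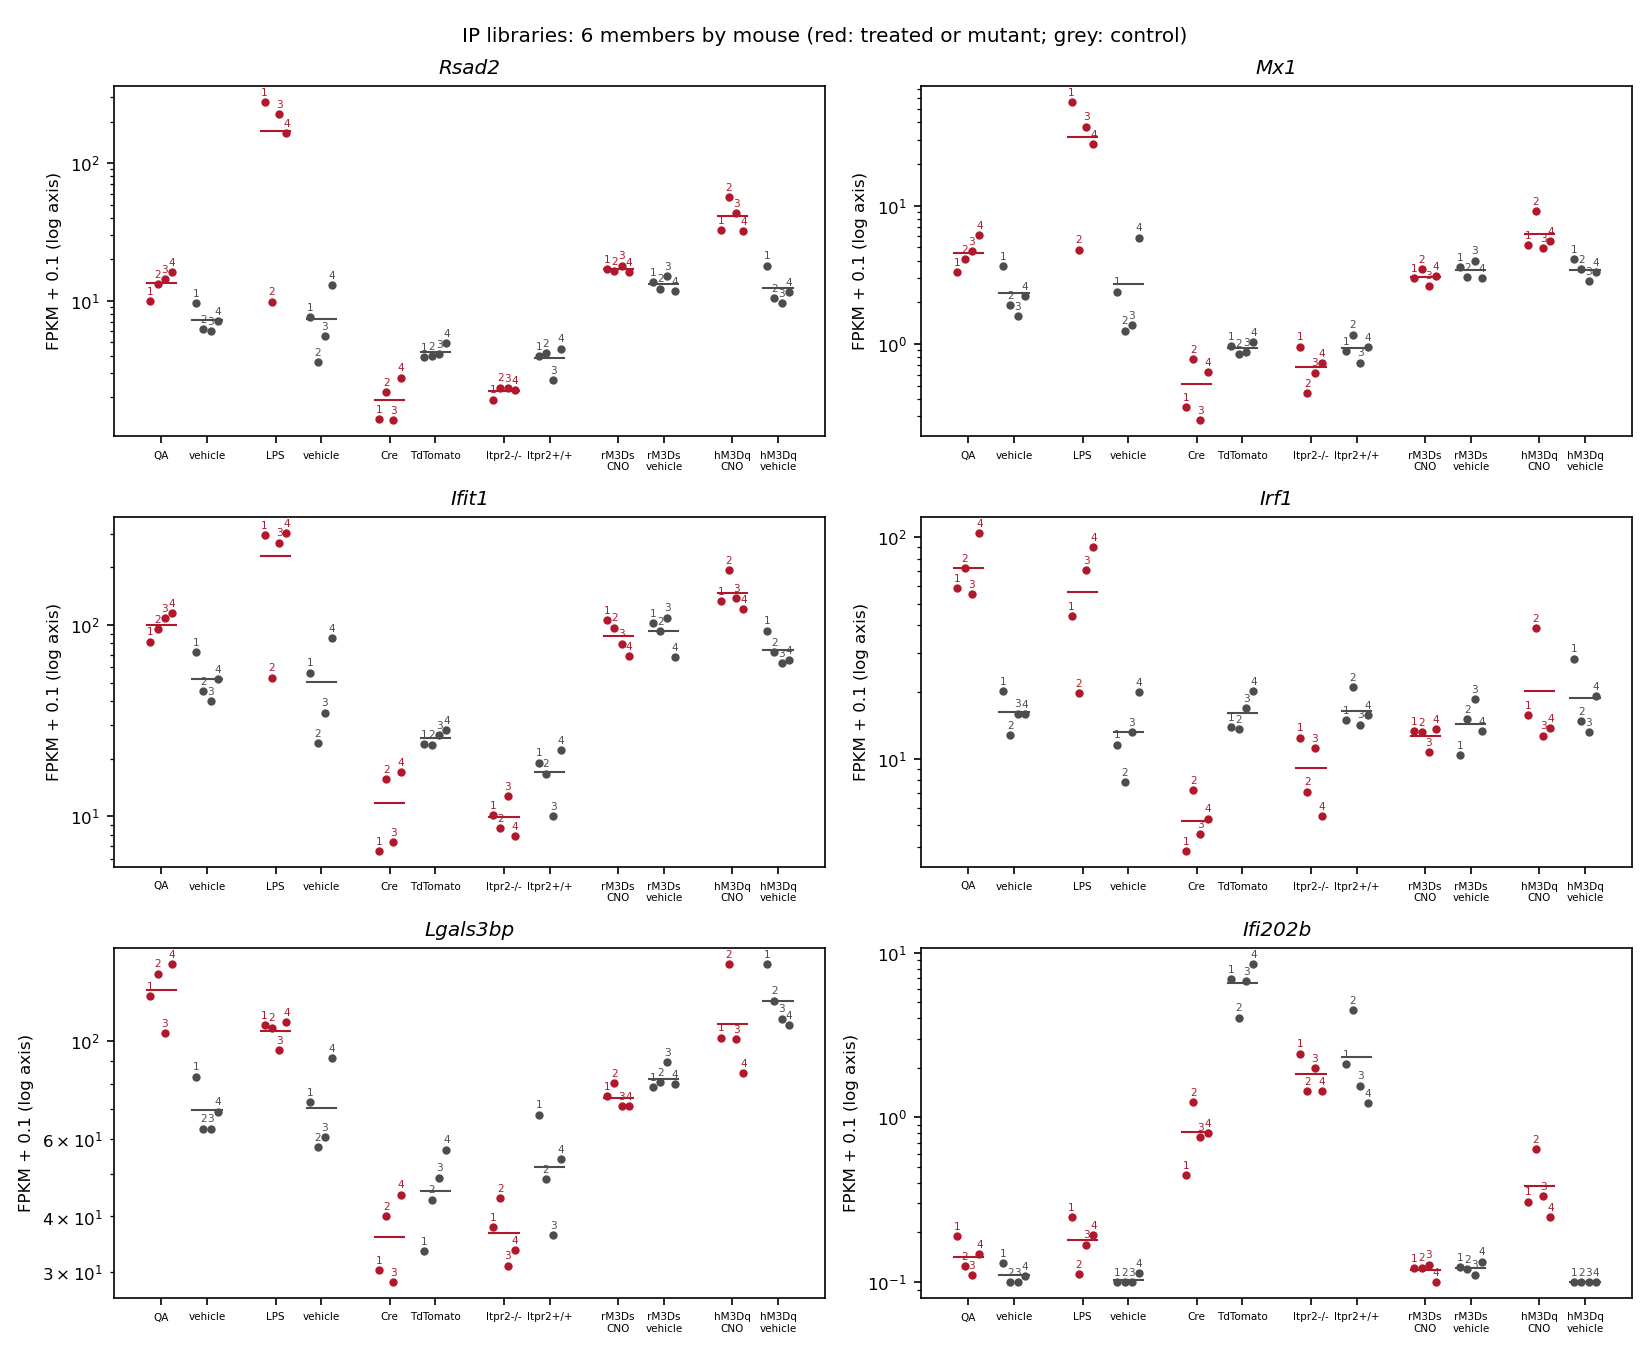
FPKM + 0.1 of 6 members (Rsad2, Mx1, Ifit1, Irf1, Lgals3bp and Ifi202b) is plotted on a log axis for each mouse in IP, with the treated or mutant group left of its control in each experiment. Rsad2 in LPS IP runs from 9.77 to 278 FPKM over 4 mice, with replicate 2 at the bottom, and Lgals3bp in LPS IP stays between 95.4 and 110 FPKM. Bars are means.

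The Itpr2 experiment showed lower values of the module without a call. In IP 0 of 37 members passed, where 0% of all 13359 genes did in limma, and all 37 members had a negative change (median -0.63, all genes 0.00). At an unadjusted p under 0.05 there were 32 members and 795 genes. In input 0 of 37 passed, where 0.00709% of all 14099 genes did (1 gene), and 24 members and 1276 genes had an unadjusted p under 0.05 (median member -0.54). The groups did not overlap in 8 members in IP, where 1.9% of all genes lay wholly below, and in 4 in input, where 2.43% did. Bst2 had the largest change, at 8.68, 9.38, 8.26 and 5.44 FPKM in IP libraries labelled Itpr2-/-, against 29.1, 13.7, 12.8 and 20.7 FPKM in Itpr2+/+ (log2 change -1.19, unadjusted p = 0.00069, adjusted p = 0.41). Irf7, the factor that amplifies interferon genes, had 4.08, 3.97, 4.49 and 2.99 FPKM in Itpr2-/- IP, against 9.06, 8.52, 4.76 and 8.74 FPKM in Itpr2+/+ IP (-0.94). In Irf7 the groups lay apart, with Itpr2+/+ replicate 3 next to the Itpr2-/- mice. Without that replicate 3 members in IP and 1 in input were called lower. The change in IP minus that in input passed for 0 of 38 members, where 0% of all 14482 genes did (3 members and 740 genes at an unadjusted p under 0.05).

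After CNO in rM3Ds mice the module was near its controls. In IP 1 of 37 members was higher and none lower, where 3.29% of all 13535 genes were higher and 176 genes lower (median member -0.10, all genes 0.00). It was Rsad2, at 16.9, 16.4, 17.9 and 16.1 FPKM in CNO IP, against 13.5, 12.2, 14.9 and 11.6 FPKM in vehicle IP (log2 change 0.37 ± 0.08 SE, adjusted p = 0.037). Every CNO mouse was above every vehicle mouse in Rsad2, and the call was lost without 7 of the 8 libraries. A single call is near the share of all genes and so gives no result about the module. Ifit3 had the most negative change, at 305, 270.0, 239 and 219.5 FPKM in CNO IP, against 336, 321, 381 and 262 FPKM in vehicle IP (-0.32). The groups overlap there. CNO mice lay wholly above vehicle mice in 1 member in IP and wholly below in 2, where 5.21% and 4.88% of all genes did. In input 0 of 40 members passed, where 0.577% of all 14387 genes were higher and 0.0209% lower, and 1 member and 764 genes had an unadjusted p under 0.05. The change in IP minus that in input passed for 0 of 40, where 1.8% of all 14763 genes were higher and 0.4% lower, and 4 members and 1793 genes had an unadjusted p under 0.05. Socs3, a feedback inhibitor of cytokine receptors, was 2.55 higher in rM3Ds CNO IP and Cxcl10 0.74 higher, while Ifnar1 and Ifnar2 had changes of -0.03 and -0.07.

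CNO in hM3Dq mice went with positive changes in nearly all members, 36 of 39 in IP and 40 of 40 in input, of which a smaller number passed the test. In IP 14 of 39 members were higher and none lower, where 24.6% of all 13563 genes were higher and 2836 genes lower (median member 0.45, all genes 0.00). By role they were 6 of 10 IFIT and antiviral members, 2 of 4 OAS genes tested, 2 of 5 of the ISG15 system and ubiquitin ligases, 2 of 4 ADP-ribosyltransferase genes and partners, and 2 of 6 other members, with 0 of 5 sensors tested and 0 of 5 transcription factors. The 14 were Ifit1, Ifit3, Rsad2, Mx1, Mx2, Samd9l, Oasl1, Oas2, Usp18, Trim25, Parp9, Dtx3l, Xaf1 and Rtp4. In input 2 of 40 were higher and none lower, where 2.7% of all 14663 genes were higher and 161 genes lower (median member 0.53, all genes -0.01).

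Rsad2 had 32.7, 56.7, 43.2 and 32.1 FPKM in hM3Dq CNO IP, against 17.9, 10.4, 9.51 and 11.5 FPKM in vehicle IP (log2 change 1.78 ± 0.23 SE, adjusted p = 0.00016). Oasl1 had 4.40, 7.43, 6.03 and 4.48 FPKM in CNO IP, against 2.504, 1.34, 1.54 and 2.15 FPKM in vehicle IP (1.57 ± 0.23 SE). In both genes all CNO mice were above all vehicle mice. Mx2 had 5.43, 8.59, 5.90 and 6.21 FPKM in CNO IP, against 3.74, 3.15, 2.68 and 2.11 FPKM in vehicle IP (1.19 ± 0.19 SE). Ifit1 had 133, 194, 138 and 121 FPKM in CNO IP, against 93.3, 72.1, 62.8 and 65.6 FPKM in vehicle IP (1.03 ± 0.17 SE). CNO replicate 2 was the high mouse in all of these, and the groups did not overlap. Samd9l, a restriction factor that curbs translation, was 0.90 higher and Mx1 0.86 higher. Irf1 did not pass the test, at 15.6, 38.8, 12.6 and 13.7 FPKM in CNO IP, against 28.2, 14.7, 13.1 and 19.1 FPKM in vehicle IP (0.05, adjusted p = 0.93), with CNO replicate 2 alone above the vehicle mice. Ifitm3 had 166, 354, 187 and 167 FPKM in CNO IP, against 231, 201, 166 and 185 FPKM in vehicle IP (0.13, adjusted p = 0.68).

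In input Rsad2 had 5.89, 13.0, 9.56 and 8.42 FPKM in CNO mice, against 3.65, 2.5, 3.19 and 3.42 FPKM in vehicle mice (log2 change 1.45 ± 0.21 SE, adjusted p = 0.0039). Ifit3 was the other input call (0.84, adjusted p = 0.037). The groups did not overlap in 9 members in IP, near the share of all genes, of which 21% lay wholly above, and in 6 in input, where 6.31% did. Irf1 (-0.39) and Ifitm3 (-0.28) had a lower change in IP than in input, 2 of 40 members with none higher, where 6.61% of all 15142 genes were lower and 15% higher. The share called lower is near that of all genes and so gives no result about the module. Without CNO replicate 2 the IP count was 13 higher and 2 lower (median 0.23) and the input count 1. Without vehicle replicate 1 they were 24 and 5, without vehicle replicate 3 the IP count was 9, and without CNO replicate 1 the input count was 10, while it was 1 without any other library. Astrocyte markers summed to 4867 to 6465 FPKM in CNO IP, against 7146 to 7987 FPKM in vehicle IP, with 5 of 10 lower. Microglia markers summed to 20.4 to 28.0 FPKM in CNO IP, against 26.9 to 29.6 FPKM in vehicle IP. Their part in the result was not tested. Ifnar1 (0.24) rose in hM3Dq CNO IP, and Ifnar2 (0.32, adjusted p = 0.055) did not pass. Of 8 receptor and kinase genes 3 rose, of 11 upstream sensing genes 6 rose and 2 fell, and of 15 interferon-gamma-induced genes 1 rose. Of 7 negative feedback genes 5 rose and 1 fell, with Socs3 at 5.15.

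The LPS and hM3Dq changes share Rsad2, Oasl1 and the Mx genes near the top, and the difference between them was tested. The LPS change minus the hM3Dq change in IP was higher than 0 for 7 of 39 members, a share near the 14.2% of all 14108 genes that were higher, namely Mx1 (2.67), Ifit2 (2.24), Irf1 (2.08), Cmpk2 (1.62), Ifitm3 (1.05), Lgals3bp (0.91) and Ifi27 (0.56), and lower for none, where 2377 genes were lower. Without LPS replicate 2 it was higher for 24 and lower for 1, without hM3Dq CNO replicate 2 it was higher for 13, and without any other library it was between 2 and 9. Astrocyte markers moved as well: in the same difference 9 of 10 were higher and 0 lower (median 0.75, median member 0.89). Their part in the result was not tested.

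**Figure D4:**
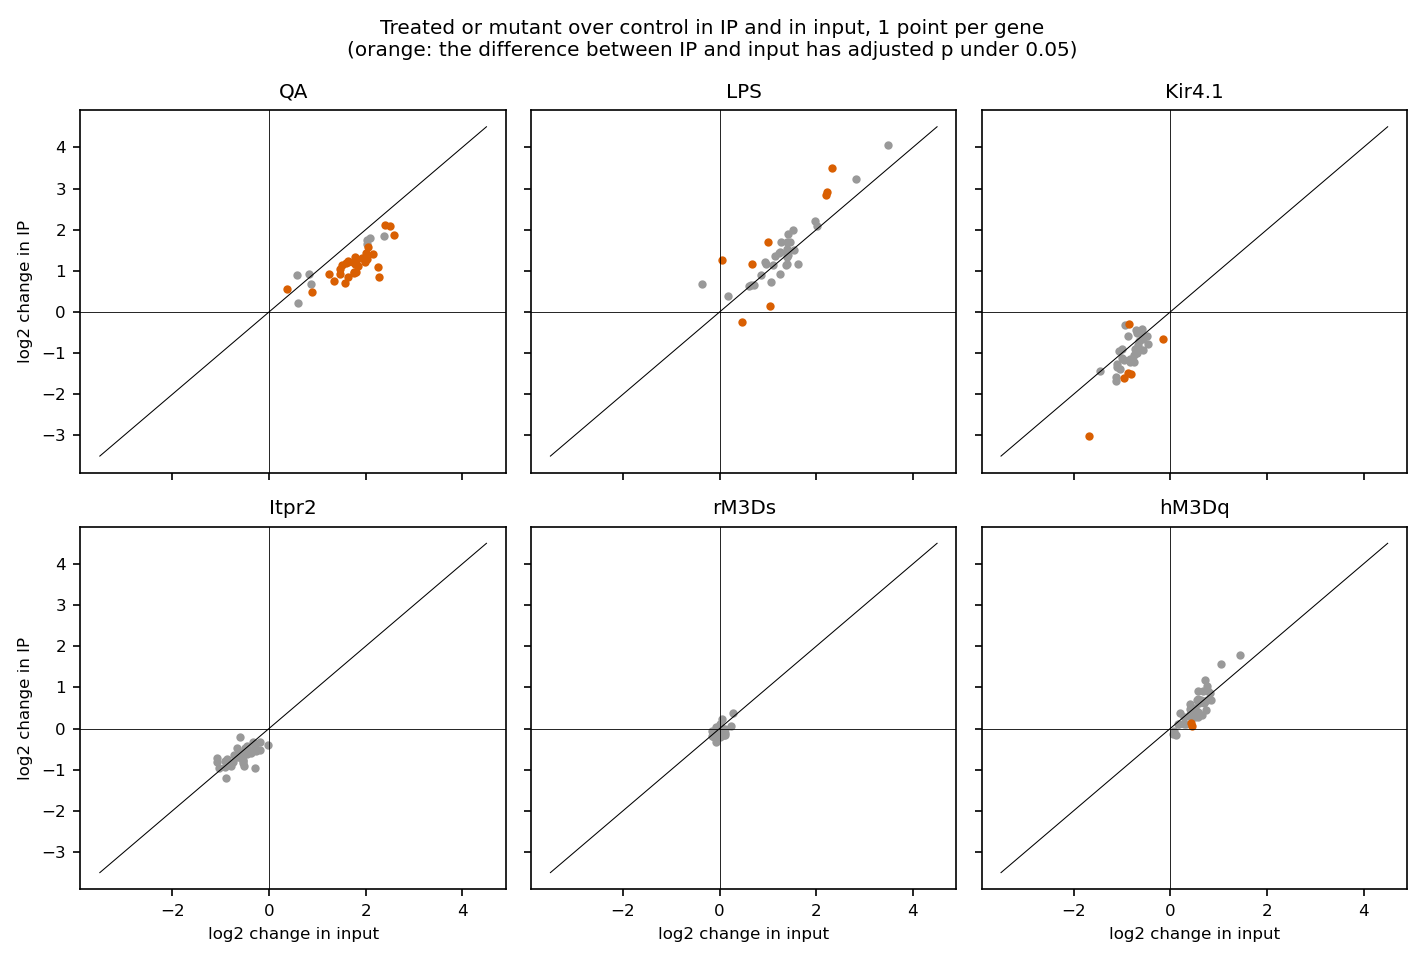
Each point is 1 member in 1 experiment, with its log2 change in input on the x axis and in IP on the y axis, and orange points are members whose change differs between IP and input within mice (adjusted p under 0.05). Most QA points lie below the diagonal (31 members called lower in IP and 1 higher), LPS points scatter around it up to 4.05 in IP, and Kir4.1 and Itpr2 points lie in the lower left.

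Across the 6 experiments, the calls fell on overlapping sets of members. With 38 of 39 members called in QA IP and 33 of 37 in Kir4.1 IP, the overlap was largely set by these single counts. It is no result beyond them. Of the 41, 30 were higher in both QA IP and LPS IP, which is all 30 called in LPS and 76.9% of the 39 members tested in both, where 10.9% of all 13362 genes tested in both were. Of those, 11 were higher in hM3Dq IP as well (28.2% of members, 5.7% of all genes), and 27 were lower in Kir4.1 IP (75% of members, 5.15% of all genes). The 10 members in all 4 sets (27.8% of members, 3.01% of all genes) were Dtx3l, Ifit1, Mx1, Mx2, Parp9, Rsad2, Rtp4, Trim25, Usp18 and Xaf1. These sets are not firm. The 30 calls in LPS IP fell to as few as 8 when 1 library was left out. With sex as a covariate, the QA IP changes were 0.62 for Ifit1, 0.51 for Mx1, 0.30 for Mx2 and 0.42 for Rsad2. Those values rest on 1 female QA mouse against 4 vehicle mice, so they do not decide whether sex matters for the sets. Dtx3l is a ubiquitin ligase that works with Parp9, Usp18 removes ISG15 and restrains the interferon receptor, and Trim25 is the ligase that activates the RNA sensor encoded by Ddx58. Its relative Ifih1 senses long double-stranded RNA, and Dhx58 regulates both. Ddx58 changed by 1.21 in QA IP, 1.71 in LPS IP and -0.51 in Kir4.1 IP and did not pass in hM3Dq IP (0.31, adjusted p = 0.089). Trim21, a cytosolic antibody receptor and ubiquitin ligase, changed by 1.14 in QA IP, 0.93 in LPS IP and -0.92 in Kir4.1 IP. Parp12, an ADP-ribosyltransferase, changed by 0.98, 0.91 and -0.81 in the same order, and Herc6 by 1.43, 1.13 and -0.60. Rtp4, a receptor-transporting protein, changed by 1.32, 1.13 and -1.04 in that order, and Xaf1, an apoptosis-promoting protein, by 1.22, 1.53 and -1.22. Only Oas3 was called in none of the 6 comparisons in IP, where it was too low to be tested.

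**Figure D5:**
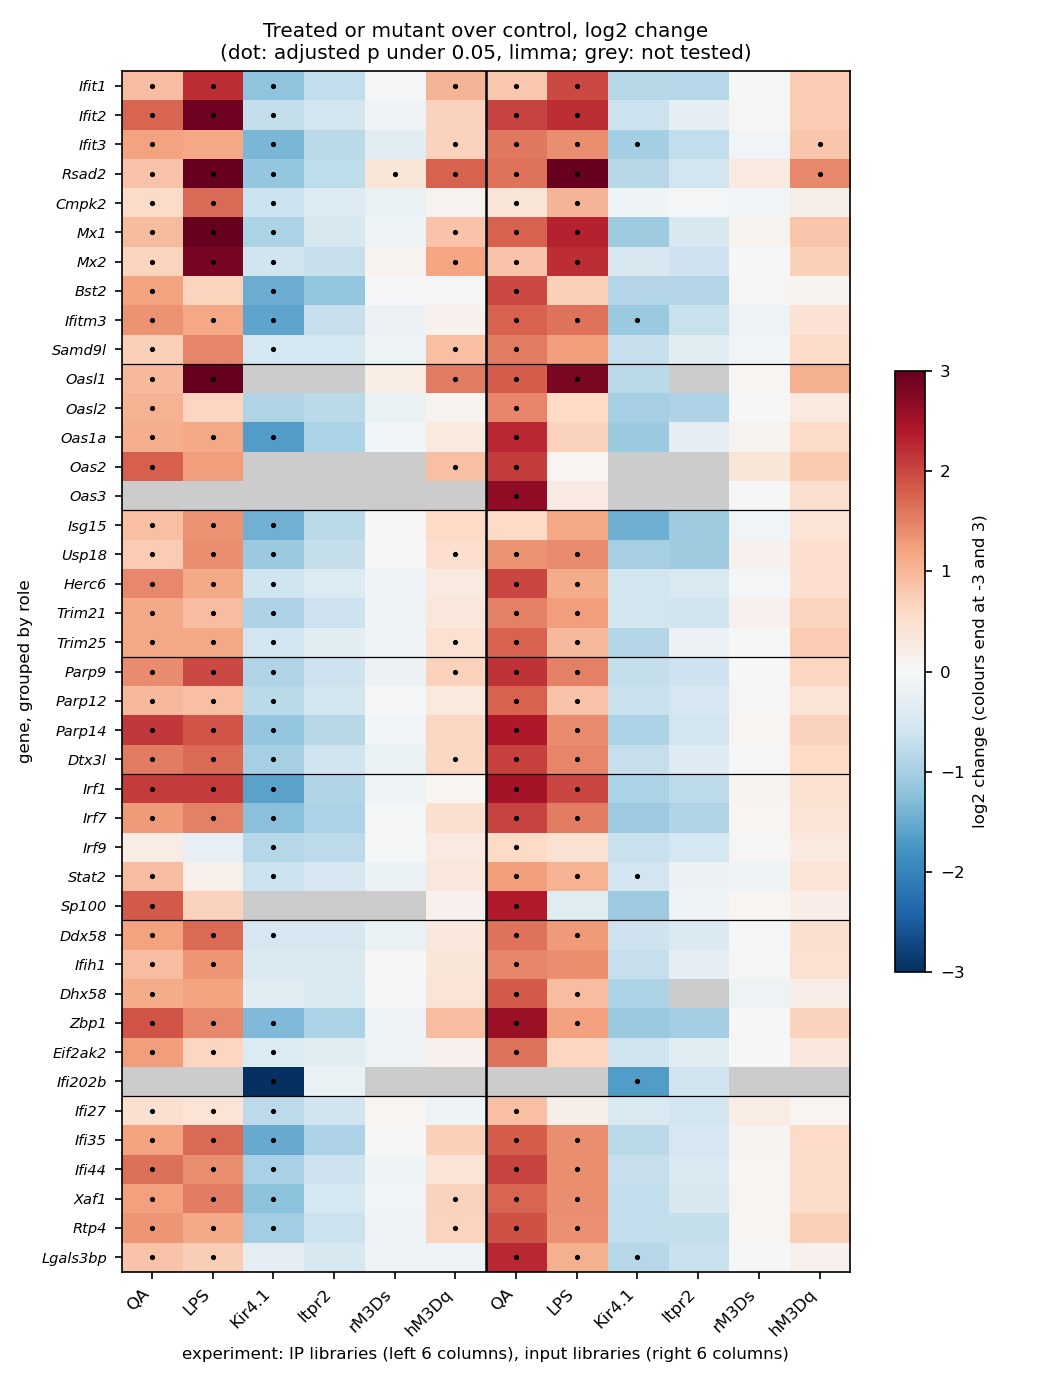
Each row is a member, grouped by role, and each column a comparison of treated or mutant over control in IP or input, coloured by log2 change, with members that passed limma's test marked. QA and LPS columns are above 0 for nearly all members, the Kir4.1 and Itpr2 columns below 0, the rM3Ds columns near 0, and the hM3Dq columns above 0 for 36 of 39 members in IP and 40 of 40 in input, with Rsad2 (1.78 in IP) and Oasl1 (1.57) highest in IP.

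Ifi202b differed between the controls of the experiments, and within the Kir4.1 experiment as well (log2 change -3.01 in Cre IP). In IP of C57BL/6 mice it was between 0 and 0.0330 FPKM in the control mice and highest in hM3Dq CNO mice, at 0.208, 0.538, 0.234 and 0.149 FPKM, against 0 in all 4 vehicle mice, which was too low to be tested. In the mutant lines it was at 3.93 to 8.45 FPKM in TdTomato IP, and at 1.34 to 2.34 FPKM in Itpr2-/- IP against 1.12 to 4.37 FPKM in Itpr2+/+ IP. The line and the experiment cannot be told apart.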

How the data were processed

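RNA of 48 mice was sequenced as 96 libraries (IP and input of each mouse), and the authors deposited 1 FPKM value per gene entry and library. STAR, HTSeq and the build mm10 are named, without versions, in the submitters' processing notes. The labels' protocols give a stranded kit with ribosomal RNA removal, while the molecule label says polyA RNA. Whether counting used the strand is not given in the sources used here.

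The FPKM values are steps of whole reads: 99.995% of the values came out within 0.001 of a whole read, which gave the depth. The deposited FPKM were rescaled with trimmed-mean (TMM) factors computed from them, log2(FPKM + 0.1) was taken, and genes that reached 0.5 FPKM in 4 or more libraries of a comparison were tested with limma 3.58.1 (trend) in R 4.3.3. A fold change on this scale understates the change of low genes. P-values were adjusted by Benjamini-Hochberg over all genes tested, and called means an adjusted p under 0.05. IP against input was tested on differences within mice. Treated and control arms were compared within an experiment, 4 against 4, and the difference of 2 experiments' changes in a joint fit. The labels do not say whether mice shared litters or cages, and p-values measure the spread between these mice. The steps were tested on simulated data. Promoter windows and loci came from RefSeq tables of GRCm38.p6.

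Members, lists and tests were chosen with earlier results of these data known. In the list of receptor and kinase genes, 1 gene is not reported here and is left out of the counts. Values per mouse are given for the 6 called members with the largest change in IP, or 4 in input, if they averaged 1 FPKM or more, and for members that went against the majority or missed the threshold where most passed. Members shown beyond that (Lgals3bp, Ifitm3 and Ifi27 in LPS, Irf1 and Ifitm3 in hM3Dq, Ifit3 in rM3Ds, Bst2 and Irf7 in Itpr2, and Ifi202b) were chosen after their values were seen. The alternatives were other scaling factors or none, pseudocounts of 1 and 0.01, the replicate number as a block, no filter on low values, limma-voom on the recovered reads, sex as a covariate for QA and Itpr2, and each library left out.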

Additional observations from a re-analysis of the deposited data

Results flagged for a closer look

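Of 879 combinations of a member and a group of 4 mice with a mean of at least 1 FPKM, 47 (5.35%) had 1 mouse far from the other 3 by Dixon's criterion, and chance flags about 1 in 20 groups. These cases were uneven between libraries. In IP, hM3Dq CNO replicate 2 was far above the others of its group in 11 members, Itpr2+/+ replicate 3 far below in 6, and LPS replicate 2 far below in 4. In input, hM3Dq CNO replicate 2 was far above in 4.

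The change differed between IP and input, tested within mice, in 32 of 40 members for QA, where 30.9% of all genes were higher and 19.7% lower. For LPS it differed in 8 of 40 (all genes 5.49% higher and 3.03% lower). For Kir4.1 it differed in 6 of 39 (all genes 0.59% higher and 1.89% lower). For hM3Dq it differed in 2 of 40, both lower, where 6.61% of all genes were lower. The QA and LPS changes differed in 6 of 39 members in IP, where 27.5% of all genes were higher and 30.1% lower. In input they differed in 11 of 40, all higher, where 26.4% of all genes were higher. The LPS and hM3Dq changes differed in 7 of 39 members in IP, all higher, where 14.2% of all genes were higher. These counts between experiments are near or below the shares of all genes and give no result about the module. The report gives these members with their values.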

How the results depend on the processing

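Beside the fits that leave out a library, the number of called members under each alternative was within 1.5 times the reported number in 168 cases, larger in 4 and smaller in 9. Among single members, 2107 alternatives kept the direction and the side of the threshold, 115 lost the call and 1 reversed, Mx2 in IP over input of control mice, at -0.08 without TMM factors against 0.15. The same replicate number was not taken to pair mice, since no comparison had correlations above 0.1 for every number. These correlations ran from -0.16 to 0.53 in rM3Ds IP and from 0.07 to 0.32 in Kir4.1 IP. A pairing of only some mice was not tested. With the replicate block, calls in Kir4.1 input were 2 and in hM3Dq input 1, and no other count moved by over 1.5 times. With no replicate block (IP and input of a mouse as separate samples), the differences between IP and input were 6 for QA, 0 for LPS, 0 for Kir4.1 and 0 for hM3Dq. With no filter the calls were 0 in Kir4.1 input, 0 in rM3Ds IP and 1 in hM3Dq input. With limma-voom on recovered reads they were 14 in Kir4.1 input and 10 in hM3Dq input. The hM3Dq differences between IP and input were 4 without TMM factors and 6 with a pseudocount of 1. The causes were not tested.

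With each library left out in turn, the lowest and highest numbers of called members were 36 and 39 in QA IP, 38 and 40 in QA input, 8 and 34 in LPS IP, 7 and 32 in LPS input, 23 and 35 in Kir4.1 IP, 0 and 7 in Kir4.1 input, 0 and 3 in Itpr2 IP, 0 and 1 in Itpr2 input, 0 and 1 in rM3Ds IP, 0 and 0 in rM3Ds input, 9 and 24 in hM3Dq IP, and 1 and 10 in hM3Dq input. For the change in IP against input they were 28 and 32 for QA, 2 and 23 for LPS, 3 and 7 for Kir4.1, 0 and 0 for Itpr2, 0 and 0 for rM3Ds, and 1 and 5 for hM3Dq. For the QA change minus the LPS change they were 3 and 13 in IP and 9 and 15 in input, and for the LPS change minus the hM3Dq change 2 and 25 in IP. Low levels limit 4 members most: Oas3 was too low to be tested in any of the 6 comparisons in IP, Oas2 and Sp100 in 3 of them, and Ifi202b in IP and input of the 4 experiments on C57BL/6 mice.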
